A study of Mus musculus with 12 samples.

Results

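The genes described here encode the sodium channels, calcium channels, hyperpolarization-activated channels, TRPC channels and intracellular calcium release channels of the mouse hippocampus. Members were the protein-coding genes of GENCODE release M21 whose symbols begin with Scn, Cacna, Cacnb, Hcn, Trpc, Ryr or Itpr followed by the family's number or letter. This gave 51 genes out of 41091 gene IDs in the count tables, and 49 of them encode channel subunits. Trpc4ap and Trpc5os make up the rest and carry a TRPC symbol without being channels.

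The RNA came from hippocampal slices, cut fresh and trimmed of the dentate gyrus, of C57BL/6 mice (wild type, 2 to 3 months old), and total RNA was sequenced. Chemical long-term potentiation (LTP) was induced with forskolin (50 uM), alone for 5 min and then for another 5 min with KCl raised to 30 mM and calcium to 10 mM. Control slices were kept for the same 10 min in vehicle (0.2% DMSO). Freezing 1 hr or 3 hr afterwards gave 4 groups, LTP and control at each time, with 3 libraries a group, and each animal gave both an LTP and a control library. Forskolin raises cyclic AMP throughout a slice and the high potassium depolarizes all cells in it, so the groups describe whole slices and no single synapse or cell type. The study set aside 1 hr control replicate 2 after clustering, and its values are given here but did not enter the tests.

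Library totals ran from 37118382 to 50815001 counts, of which the 51 genes held between 0.724% and 0.877%. In CPM, counts scaled to the normalized library size, a floor of 3 counts lay between 0.0584 and 0.0791. Counting error alone would give a chi-square per degree of freedom near 1 between replicates, and the observed values ran from 9.49 to 85.6, the highest between 3 hr LTP replicates 2 and 3. No marker of pyramidal neurons, inhibitory neurons, glia or vessels was at 0 in any library. The 5 markers of dentate granule neurons were also detected, with summed levels from 177 to 296 CPM over the 12 libraries, beside 2696 to 4300 CPM for the 6 general markers of pyramidal neurons.

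Voltage-gated sodium channels open on depolarization and carry the upstroke of the action potential. Voltage-gated calcium channels turn the same depolarization into calcium entry. Each is built around one large pore-forming subunit, called alpha or alpha1, and smaller auxiliary subunits, called beta or alpha2delta, that control its trafficking and gating. L-type calcium channels signal from the dendrite and soma to the nucleus, P/Q-, N- and R-type channels trigger transmitter release and act in spines and dendrites, and T-type channels open near the resting potential. HCN channels pass the hyperpolarization-activated current that sets resting properties of dendrites, and TRPC channels are cation channels opened downstream of phospholipase C. Ryanodine and IP3 receptors release calcium from the endoplasmic reticulum. In hippocampal neurons, calcium from all of these sources starts plasticity, and the channels themselves adjust over hours to changes in activity.

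The start regions of 3 genes that rose after LTP are shown first, because forskolin raises cyclic AMP, whose response element is a known promoter sequence. Each line is 300 bases from RefSeq (build GRCm38.p6), 250 before and 50 after an annotated start, read 5′ to 3′ on the gene's strand. Capitals mark TGACG, the core of the cyclic AMP response element, or CGTCA, the same letters on the opposite strand. Cacna1b (N-type pore) is at chr2:24763103-24763402 on the minus strand, and its capitals begin 87 bases before the start. Cacna1i (a T-type pore) is at chr15:80286988-80287287 on the plus strand, and its capitals begin 72 bases before the start. Cacna1e (R-type pore) is at chr1:154725871-154726170 on the minus strand, inside the gene as GENCODE draws it, and is shown because it rose furthest of the 3 and holds no match.
Cacna1b: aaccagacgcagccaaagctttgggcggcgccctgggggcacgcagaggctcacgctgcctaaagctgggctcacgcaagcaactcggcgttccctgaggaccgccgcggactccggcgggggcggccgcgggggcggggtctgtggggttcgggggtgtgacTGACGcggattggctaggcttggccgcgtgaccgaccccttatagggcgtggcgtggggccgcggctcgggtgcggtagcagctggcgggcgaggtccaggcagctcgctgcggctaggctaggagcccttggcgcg
Cacna1i: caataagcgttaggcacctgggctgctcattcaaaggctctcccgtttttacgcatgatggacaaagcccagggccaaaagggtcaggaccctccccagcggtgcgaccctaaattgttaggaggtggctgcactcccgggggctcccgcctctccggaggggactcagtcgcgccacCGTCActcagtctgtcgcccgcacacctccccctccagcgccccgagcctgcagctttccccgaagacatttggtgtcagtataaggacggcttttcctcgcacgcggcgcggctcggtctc
Cacna1e: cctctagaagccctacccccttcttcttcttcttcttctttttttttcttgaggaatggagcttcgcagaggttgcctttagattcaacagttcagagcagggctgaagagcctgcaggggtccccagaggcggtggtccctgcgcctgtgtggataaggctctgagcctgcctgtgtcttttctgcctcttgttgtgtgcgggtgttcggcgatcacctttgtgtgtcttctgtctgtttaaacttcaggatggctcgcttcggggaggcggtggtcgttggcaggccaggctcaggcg

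RefSeq windows were at hand for 38 of the 51 genes, 48 windows in all, and for 6 of the 8 that rose at 3 hr, Ryr3 and Cacna1g being the others. TGACG, searched on both strands and counted also inside the full element, was in 3 of the 10 windows of members that rose at 3 hr (30%), in 5 of the 33 windows of the other tested members (15.2%) and in 20.8% of all 32851 RefSeq windows of this length. The full element TGACGTCA was in 0 of these 10 and 0 of these 33 windows, and in 1.79% of all windows. TGANTCA, the AP-1 sequence, was likewise in 0 and 0 windows, against 7.81% of all. CACGTG, the E-box, was in 0 and 1 windows, against 7.15% of all. These counts describe letters in the windows and no binding.

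In control slices the channel genes spanned several orders of magnitude in level. Levels between genes were compared as CPM per kb of merged exon, and the median over the 5 control libraries that entered the tests was 10 or more for 20 of the 49 subunits, from 1 to 10 for 14 and under 1 for 15. The sodium channel beta subunit Scn2b (69.2 CPM per kb, range 66.4 to 71.4) and the IP3 receptor Itpr1 (57.1) were among the most abundant, followed by Scn3b (48.6) and Scn2a (48.4), whose ranges over libraries overlapped each other and that of Itpr1. Scn2a, Scn8a (27.9) and Scn1a (18.6) were the leading sodium channel pores, those of central neurons. The study counted reads of coding regions for its expression analysis, and whether the deposited counts are of that kind is not given in the sources used here, so levels were also computed per kb of coding sequence. On that scale Scn2b (499.7), Scn3b (412), Itpr1 (126), Cacnb4 (124), Cacna2d1 (105) and Scn2a (101) were among the most abundant.

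Among calcium channel pores the R-type gene Cacna1e was highest, at 27.8 CPM per kb, above the P/Q-type Cacna1a (13.7) and the N-type Cacna1b (13.4), whose ranges overlapped each other. Of the L-type pores, Cacna1c was at 7.55 and Cacna1d at 4.59 CPM per kb, but per coding kb Cacna1c (22.7) was level with Cacna1a (22.1). Of the T-type pores, Cacna1h was at 10.1, Cacna1i at 5.11 and Cacna1g at 3.77. Of the auxiliary subunits, Cacna2d1 was at 28.4 and Cacnb3 at 27.6, though Cacnb4 (22.5) passed both per coding kb. Ryr2, the main ryanodine receptor of heart and brain, was at 30.3, over Ryr3 (13.9) and Ryr1 (0.989). Hcn2 was at 16.7, and Trpc1 (10.5) led the TRPC genes on both scales, while Trpc4ap, which is no channel, stood at 17.2.

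**Figure D1:**
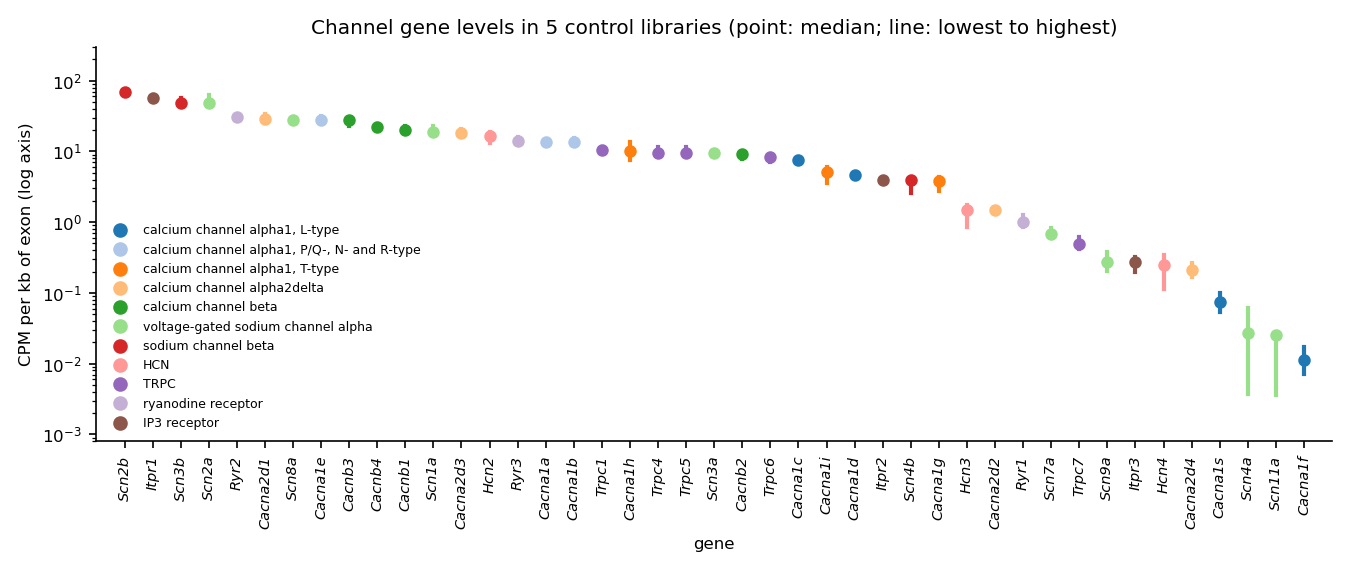
Level of the channel subunits reported by name, in CPM per kb of merged exon on a log axis, with the median of the 5 control libraries as a point and their range as a line, coloured by subfamily. Scn2b stands at 69.2 CPM per kb at the left and the genes of peripheral nerve, muscle or retina lie at the right; Trpc2 and Scn10a, with a median of 0, are not drawn.

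Several members known from other organs were near the counting floor. Cacna1f (retinal L-type pore), Scn10a and Scn11a (sodium pores of sensory neurons), Trpc2 (a vomeronasal channel) and Trpc5os had too few counts to be tested, and Scn4a (muscle sodium pore) was tested at 3 hr and in the model of all groups but not at 1 hr. Trpc2 had 0 counts in all 12 libraries, which with the floor of 3 counts allows up to 0.0791 CPM in the library where that floor is highest, but its exons overlap another gene over their whole length. The reported fits therefore cover 45 members at 1 hr and 46 at 3 hr.

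At 1 hr after LTP induction, no channel gene passed the test. The quasi-likelihood test of edgeR called 0 of 45 members at 1 hr (at adjusted p below 0.1 with a change exceeding 1.2-fold), where it called 0.789% of all genes tested. An unadjusted p under 0.05 was reached by 6 members, and DESeq2 and limma-voom also called 0. The median log2 fold change of the members was 0.0314, beside -0.00103 for all genes. Of the members, 26 had a positive and 19 a negative value. In 5 members every LTP library lay above both controls (11.1%, against 10.5% of all genes), and in 0 did every LTP library lie below them (12% of all genes).

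The member with the smallest p at 1 hr was high in LTP replicates 1 and 2 and not in replicate 3. Cacna2d2, an alpha2delta subunit typical of cerebellum and some interneurons, had 22.4, 25.8 and 12.2 CPM in the LTP libraries and 11.4 and 11.5 CPM in the controls, with 12.1 CPM in the control set aside. Its log2 fold change was 0.82 ± 0.22 (SE; edgeR adjusted p = 0.198). Replicate 3 was thus close to the controls and replicates 1 and 2 stood well above them.

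Scn7a, a sodium-sensing relative of the sodium channels, was more even, with 5.49, 6.70 and 6.96 CPM against 4.93 and 4.41 CPM (6.70 CPM in the control set aside) and a log2 fold change of 0.46 (edgeR adjusted p = 0.462). Without 1 hr LTP replicate 3, edgeR called 3 members, Cacna2d2 (log2 fold change 1.08) among them, and testing all genes with at least 1 count called the same 3. Calls over all genes went from 140 of 17736 to 344 of 17497 and 347 of 26349 in these fits. The wider test left the log2 fold change of Cacna2d2 at 0.82 but moved its adjusted p from 0.198 to 5.39e-10, and the cause was not tested.

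The same split of the 1 hr LTP libraries was seen in 2 partner genes chosen after their values were seen. Cacng5, a relative of the channel gamma subunits that binds AMPA receptors, had 13.7, 14.0 and 9.14 CPM after LTP and 7.67 and 7.86 CPM in the controls. Atp2b4, a plasma membrane calcium pump, had 72.4, 66.8 and 25.6 CPM after LTP and 42.9 and 26.6 CPM in the controls. The 5 dentate granule neuron markers summed to 282, 227 and 177 CPM in these 3 LTP libraries and to 254 and 229 CPM in the controls, and none was called. Their part in the differences was not tested. In bulk tissue, fewer cells of a type and less RNA per cell cannot be told apart.

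**Figure D2:**
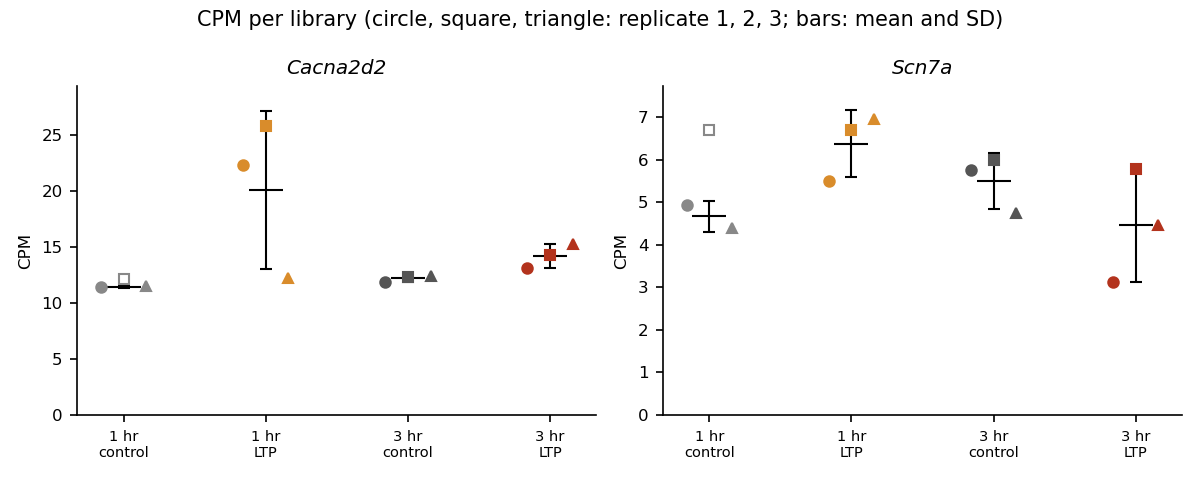
CPM of Cacna2d2 and Scn7a in all 12 libraries, by group, with circle, square and triangle for replicates 1, 2 and 3, an open square for the control set aside, and bars for the mean and SD of the libraries tested. For Cacna2d2 at 1 hr, LTP replicates 1 and 2 stand above the other 1 hr libraries and LTP replicate 3 lies near the controls at 12.2 CPM, while the 3 LTP libraries of Scn7a lie between 5.49 and 6.96 CPM.

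At 3 hr after induction, pore-forming subunits of calcium channels were higher in LTP slices, together with one sodium pore and one ryanodine receptor. The edgeR quasi-likelihood test called 8 of 46 members higher, against 5.07% of all genes tested, and 0 lower, against 1.53%. At an unadjusted p under 0.05 stood 12 members. The 8 were Ryr3, Cacna1e, Cacna1d, Scn8a, Cacna1b, Cacna1c, Cacna1i and Cacna1g, with fold changes between 1.35 and 1.45. All 8 are pore-forming, as are 33 of the 46 tested members, and 6 belong to the 9 tested calcium channel alpha1 genes. None of the 12 auxiliary beta and alpha2delta subunits passed, of sodium or calcium channels, with 1 at an unadjusted p under 0.05. The limma-voom, DESeq2 and animal block fits called none of them either. These 12 have at most 3537 coding bases, and the 9 tested alpha1 genes have 5565 to 7326. Of all genes, 2.98% rose under 2 kb of coding sequence, 5.27% at 2 to 4 kb, 12.3% at 4 to 6 kb and 22% at 6 kb or more. Subunit role and coding length were not separated. The median log2 fold change was 0.45 for the alpha1 genes, 0.0977 for the auxiliary subunits, 0.1 for all members and -0.00248 for all genes.

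**Figure D3:**
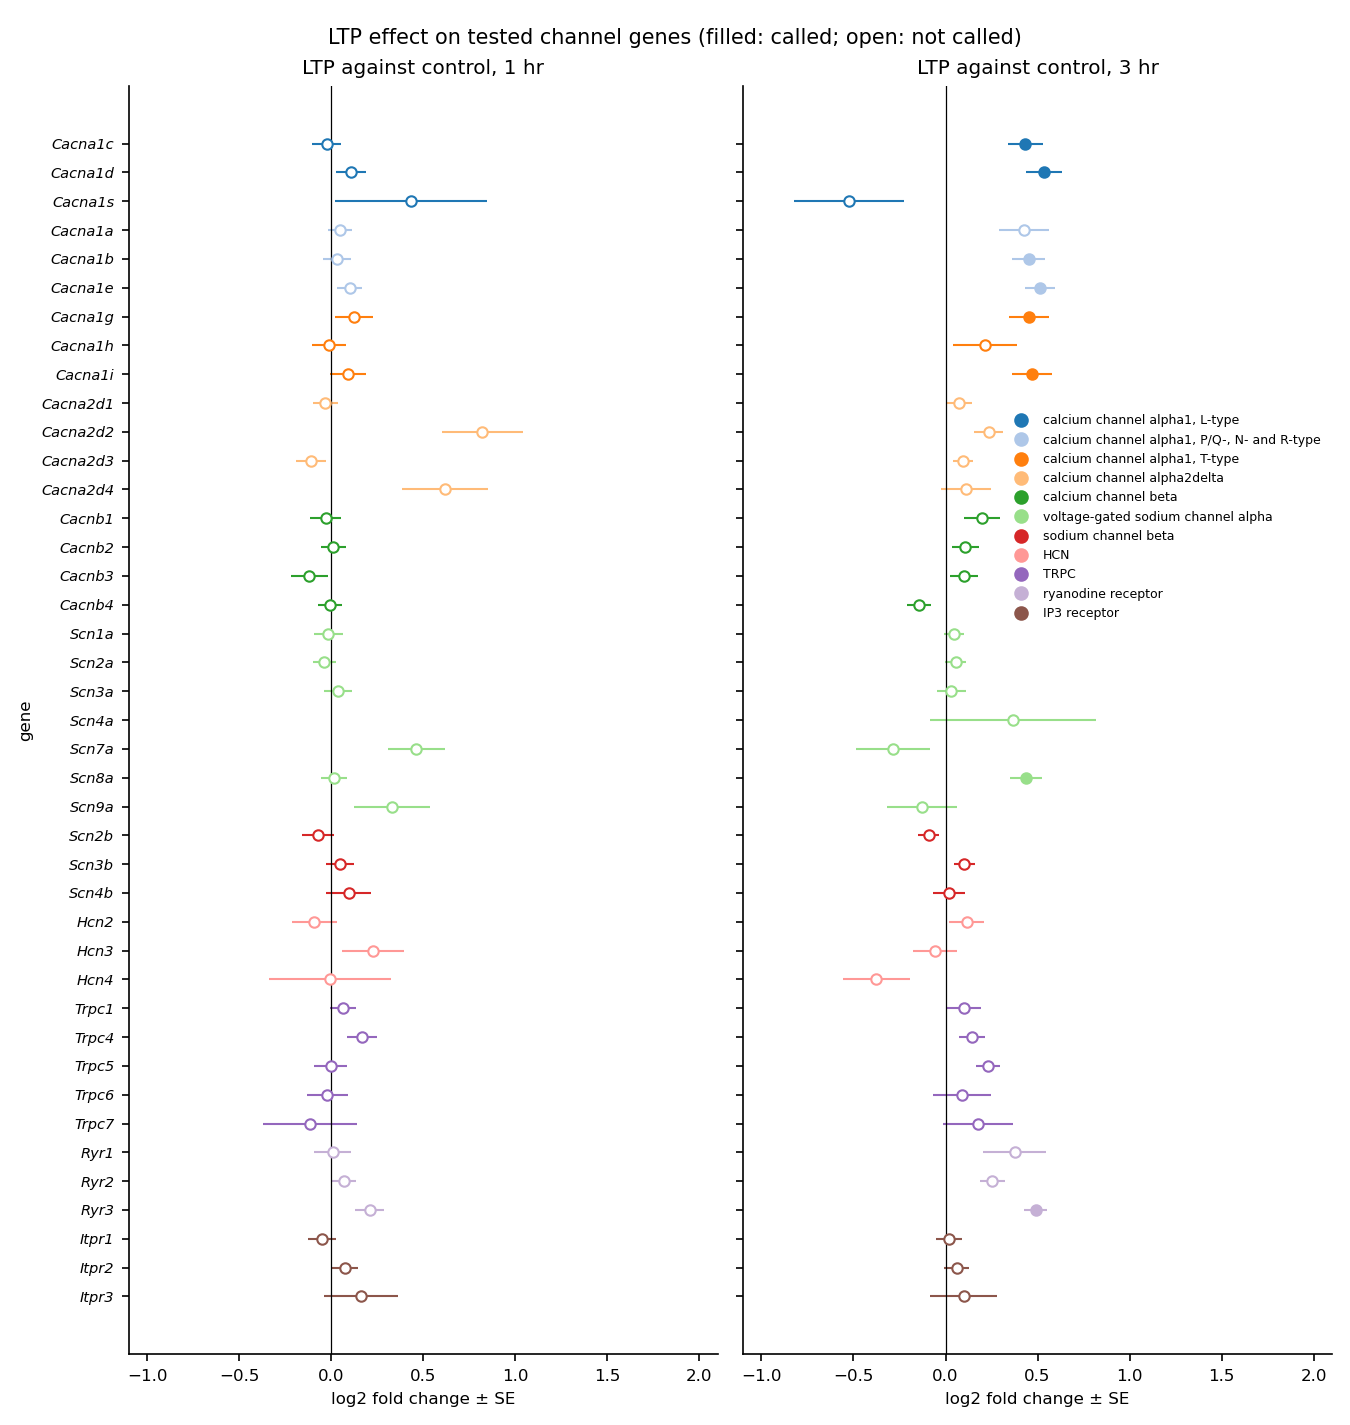
Log2 fold change of LTP against control with its SE for the channel genes tested at 3 hr and reported by name, at 1 hr on the left and at 3 hr on the right, coloured by subfamily, with filled points for genes called. At 3 hr the 8 called genes lie between 0.43 and 0.54, and no gene is called at 1 hr.

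Of the 6 tested calcium channel pores of the high-voltage kind, 4 rose, both of the brain L-type genes and the N- and R-type genes. Cacna1e (R-type, chr1:154390731-154884501, minus strand) had 646, 614 and 702 CPM in the 3 hr controls and 965, 847 and 966 CPM after LTP, a log2 fold change of 0.52 ± 0.08 (SE; edgeR adjusted p = 0.0147). Every LTP library lay above every control, replicate 2 the least. Cacna1b (N-type, chr2:24603887-24763152, minus strand), which feeds transmitter release, had 133, 134 and 153 CPM in controls and 191, 169 and 208 CPM after LTP, a log2 fold change of 0.45 ± 0.09 (SE; edgeR adjusted p = 0.0318). The groups again did not overlap.

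Cacna1d (L-type, Cav1.3, chr14:30039939-30491455, minus strand), which opens at less depolarized potentials than its L-type relative, had 57.5, 52.7 and 58.4 CPM in controls and 87.4, 68.9 and 86.1 CPM after LTP. Its log2 fold change, 0.54 ± 0.10 (SE; edgeR adjusted p = 0.0248), was the largest of the 8. Cacna1c (L-type, Cav1.2, chr6:118587240-119196418, minus strand), the main L-type pore of hippocampus, had 157, 147 and 167 CPM in controls and 216, 181 and 233 CPM after LTP, with 0.43 ± 0.10 (SE; edgeR adjusted p = 0.0464). In both L-type genes LTP replicate 2 was the lowest of the 3 and still above every control.

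Of the 3 T-type pores, 2 rose as well. Cacna1i (chr15:80287238-80398279, plus strand) had 50.4, 59.9 and 59.2 CPM in controls and 72.3, 70.4 and 90.2 CPM after LTP, a log2 fold change of 0.47 ± 0.11 (SE; edgeR adjusted p = 0.0525). Cacna1g (chr11:94408391-94474198, minus strand) had 38.2, 40.4 and 44.6 CPM in controls and 55.6, 47.8 and 63.6 CPM after LTP, with 0.45 ± 0.11 (SE; edgeR adjusted p = 0.0589). Neither gene's groups overlapped.

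The third T-type gene, Cacna1h, was not called (log2 fold change 0.21, edgeR adjusted p = 0.53). It had 104, 98.4 and 135 CPM in controls and 150, 96.3 and 141 CPM after LTP, so its groups overlapped. The P/Q-type pore Cacna1a, the main presynaptic channel of many synapses, had 157, 157 and 169 CPM in controls and 218, 167 and 260 CPM after LTP. Its log2 fold change of 0.43 was like that of the called genes, but replicate 2 fell among the controls and edgeR's adjusted p was 0.126. With animal as a block it was called (0.41, edgeR adjusted p = 0.0437), as it was by DESeq2 (0.43, adjusted p = 0.0347) and without LTP replicate 2 (0.59, edgeR adjusted p = 0.00212). Cacna1s, the L-type pore of skeletal muscle, was at 0.649, 0.436 and 0.486 CPM in controls and 0.409, 0.418 and 0.237 CPM after LTP, near the floor, and did not pass (edgeR adjusted p = 0.363).

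Scn8a (Nav1.6, chr15:100869858-101045938, plus strand), the sodium pore that sets the threshold at the axon initial segment, had 417, 399 and 440 CPM in controls and 587, 495 and 604 CPM after LTP. The log2 fold change was 0.44 ± 0.09 (SE; edgeR adjusted p = 0.0312) and the groups did not overlap. It was the only one of the 8 tested sodium pores that edgeR called. Scn2a, more abundant and the other main pore of excitatory axons, had 617, 609 and 575 CPM in controls and 621, 623 and 610 CPM after LTP (log2 fold change 0.06, edgeR adjusted p = 0.638). Scn1a, prominent in inhibitory neurons, had 207, 201 and 193 CPM against 209, 209 and 196 CPM (0.05, edgeR adjusted p = 0.694). Scn3a, the pore of developing neurons, gave 0.03 (edgeR adjusted p = 0.861), and the 4 sodium beta subunits lay between -0.0904 and 0.10.

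Ryr3 (chr2:112631355-113217096, minus strand), a calcium release channel of the endoplasmic reticulum, had the lowest adjusted p of all members. It had 264, 260 and 289 CPM in controls and 379, 369 and 383 CPM after LTP, a log2 fold change of 0.49 ± 0.06 (SE; edgeR adjusted p = 0.00633). The LTP libraries lay close to each other and well above the controls. Ryr2 had 883, 842 and 932 CPM in controls and 1089, 992 and 1060 CPM after LTP without overlap. Its adjusted p of 0.0861 in edgeR was under the threshold, but its log2 fold change of 0.26 fell short of the fold change required, and with offsets for GC content and exonic or coding length it was 0.015 or -0.022 (edgeR adjusted p = 0.914 and 0.865). Ryr1, the skeletal muscle form, had 25.0, 19.6 and 27.4 CPM against 38.7, 25.5 and 28.3 CPM (0.38, edgeR adjusted p = 0.264), and passed with animal as a block (0.37, edgeR adjusted p = 0.0923).

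None of the auxiliary subunits of calcium channels, which assemble with high-voltage pores, was called. Cacna2d1, an alpha2delta subunit bound by gabapentin, had 353, 324 and 314 CPM in controls and 347, 362 and 326 CPM after LTP (log2 fold change 0.08, edgeR adjusted p = 0.573). Cacna2d3 had 160, 158 and 147 CPM in controls and 162, 164 and 166 CPM after LTP (0.10, edgeR adjusted p = 0.37), a small difference without overlap. Cacna2d2, uneven at 1 hr, had 11.9, 12.3 and 12.4 CPM against 13.1, 14.3 and 15.3 CPM (0.23, edgeR adjusted p = 0.151), again without overlap.

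The beta subunits, which bind the pore inside the cell, differed in sign among themselves. Cacnb1 had 85.9, 90.7 and 104 CPM in controls and 108, 94.4 and 116 CPM after LTP (0.20, edgeR adjusted p = 0.298). Cacnb4 had 210, 200 and 189 CPM in controls and 189, 178 and 171 CPM after LTP (-0.14, edgeR adjusted p = 0.26), and its groups met at 189 CPM. Cacnb2 and Cacnb3 gave 0.11 and 0.10. Without LTP replicate 2, Cacnb1 was among the 15 members called.

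The other release channels and cation channels showed no called change at 3 hr. Itpr1, the chief IP3 receptor of neurons, had 1009, 1049 and 1046 CPM in controls and 1102, 1037 and 976 CPM after LTP (log2 fold change 0.02, edgeR adjusted p = 0.91). Itpr2 and Itpr3 gave 0.06 and 0.10. Of the HCN genes, Hcn2 gave 0.12, Hcn3 -0.06 and Hcn4 -0.38, with an adjusted p of 0.288 or more in edgeR and 0 at an unadjusted p under 0.05. All 6 tested TRPC genes had positive values, from 0.09 to 0.23. The largest was that of Trpc5, with 46.8, 47.6 and 45.2 CPM in controls and 57.0, 51.4 and 54.0 CPM after LTP. Its groups did not overlap and its adjusted p in edgeR was 0.0926, but its fold change was below the threshold.

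**Figure D4:**
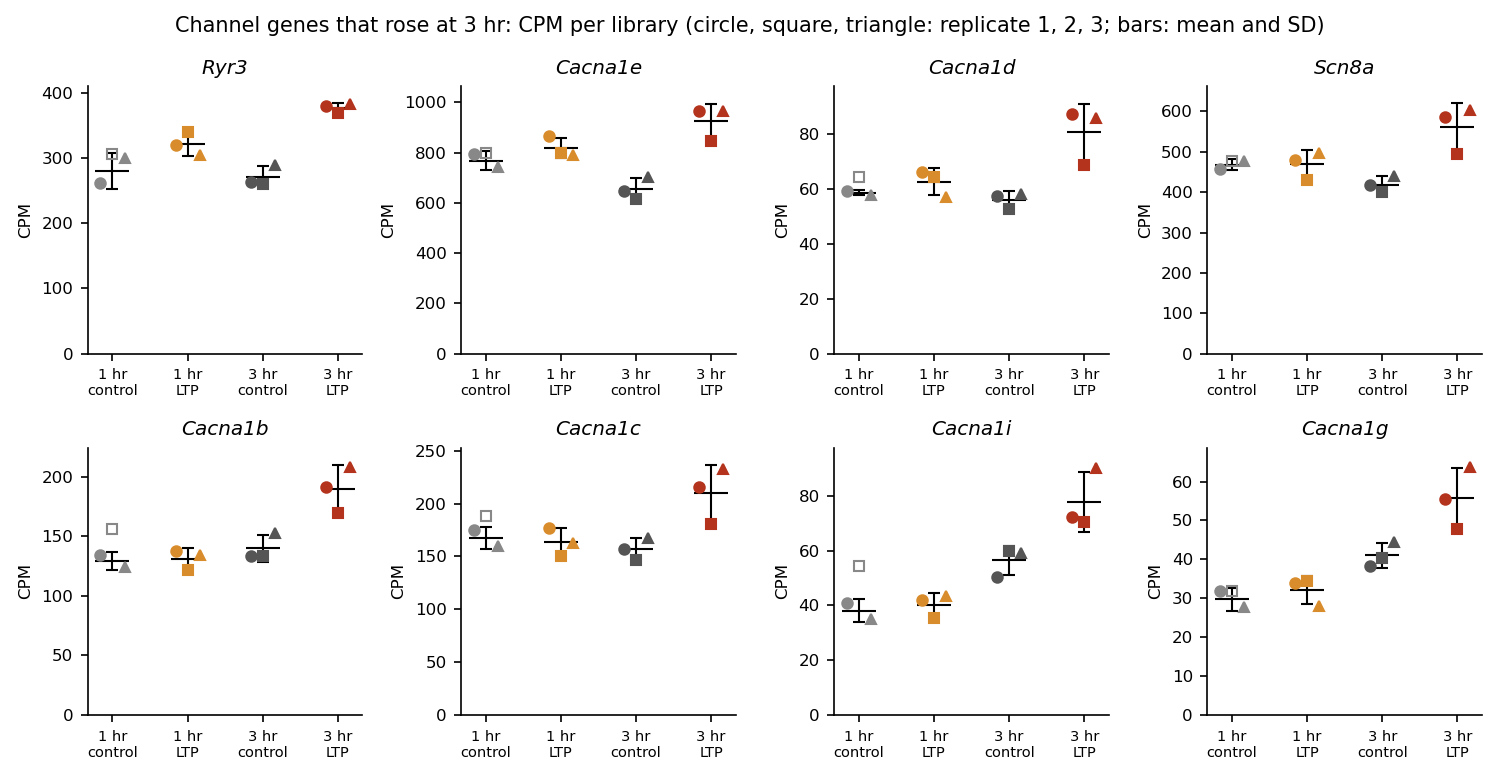
CPM per library of the 8 channel genes called higher at 3 hr, by group, with circle, square and triangle for replicates 1, 2 and 3, an open square for the control set aside, and bars for the mean and SD of the libraries tested. In every panel the 3 hr LTP libraries lie above the 3 hr controls; Ryr3 runs from 369 to 383 CPM after LTP and from 260 to 289 CPM in controls.

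Each of the 8 genes was higher in the LTP slices of all 3 animals at 3 hr, which follows from their groups not overlapping. The log2 ratio of LTP to control ran from 0.46 to 0.60 in animal 1, from 0.23 to 0.50 in animal 2 and from 0.40 to 0.61 in animal 3, and animal 2 gave the smallest ratio for 6 of the 8. Over all members, 12 had every LTP library above every control, 26.1% against 12.9% of all genes, and 2 had every LTP library below, against 14.1%. The 4 beside the called genes were Ryr2, Trpc5, Cacna2d2 and Cacna2d3, and the 2 below were Cacna1s and Trpc4ap.

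The count at 3 hr depended on single libraries. Leaving out control replicate 1, 2 or 3 in turn gave 2, 1 and 5 called members, and leaving out LTP replicate 1, 2 or 3 gave 2, 15 and 8. Over all genes the calls moved too, from 1155 to 313, 228 and 415 and to 331, 2170 and 1329, in the same order. Ryr3 passed in all 6 of these fits, with a log2 fold change between 0.46 and 0.55. The summed pyramidal neuron markers were 3474, 2696 and 4300 CPM in the 3 LTP libraries and between 3128 and 3278 CPM in the controls, LTP replicate 2 being the lowest, and 1 of the 6 was called higher. For all 8 called genes too, replicate 2 was the lowest of the LTP libraries. The part of the markers in the differences was not tested.

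The members that rose at 3 hr have long transcripts. The tested members had a median merged exonic length of 8991 bases, against 3970 for all genes, and the 8 that rose had a median of 14194. Of genes of 10 kb or more, 15.1% rose and 0 fell, with a median log2 fold change of 0.11, and 6 of the 18 members in that class rose, with a median over the 18 of 0.18. Between 8 and 10 kb, 7.41% of genes and 2 of 11 members rose. Of the 17 shorter members none was called, where between 3.18% and 4.91% of all genes rose in the classes under 8 kb. Over the 46 members the log2 fold change had a Pearson correlation of 0.39 with log2 exonic length, over all 17359 genes one of -0.105, and genes of one slice share its libraries. By coding length the relation over all genes was stronger, with a correlation of 0.24 over 14763 genes and 0.39 over the members. Of genes with 6 kb or more of coding sequence 22% rose, and 8 of the 19 members in that class. Below it 0 of 27 members rose, where 2.98% to 12.3% of all genes did. The part of length in the differences was not tested beyond the offsets that follow.

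With offsets for GC content and exonic length in edgeR, 8 members again rose and 7 of them were the same, while over all genes 990 of 17508 rose, against 888 without offsets. Cacna1a entered (log2 fold change 0.33) and Cacna1c left, since its 0.23 fell short of the fold change required at an adjusted p of 0.0388. The estimates of the 7 were lower than without offsets, from 0.29 (Scn8a and Cacna1e) to 0.41 (Cacna1d and Cacna1i). With coding length in its place, an alternative added after the data were seen, 6 of the 8 rose, from 0.27 (Cacna1b and Scn8a) to 0.35 (Cacna1d), where over all genes 924 of 17508 rose. Ryr3 (0.21, edgeR adjusted p = 0.0418) and Cacna1c (0.25, edgeR adjusted p = 0.0546) then fell short of the fold change required.

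**Figure D5:**
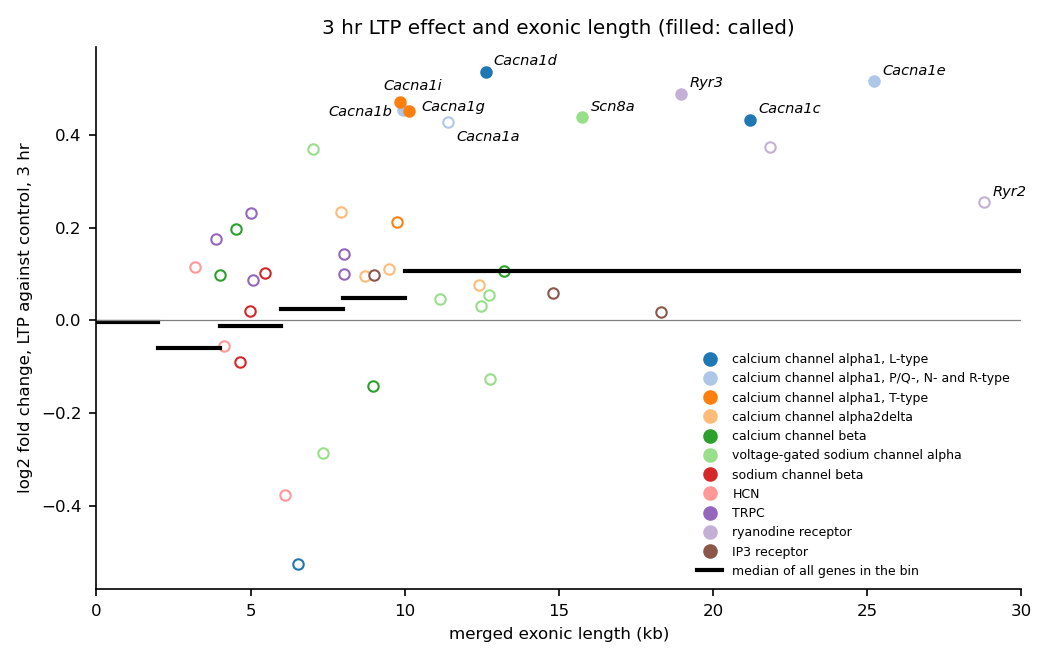
Log2 fold change of LTP against control at 3 hr against merged exonic length in kb, 1 point per channel gene reported by name, coloured by subfamily, filled where called; black lines give the median of all genes tested in each length class. The called genes are all longer than 8 kb. Since a call required a change exceeding 1.2-fold, each necessarily lies above the median of 0.11 of genes of 10 kb or more.

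Whether the LTP effect differed between the time points was tested in one model of all groups. The edgeR quasi-likelihood test called 0 of 46 members in the difference of the LTP effects, where 0.0592% of all genes were called, with 10 members at an unadjusted p under 0.05. The lowest adjusted p was 0.387, for Cacna1e (difference 0.42 on the log2 scale). Scn8a gave 0.43 (edgeR adjusted p = 0.449) and Cacna1b 0.43 (edgeR adjusted p = 0.464). The 8 genes that rose at 3 hr had log2 fold changes from -0.02 to 0.21 at 1 hr and differences from 0.29 to 0.47, 7 of them at an unadjusted p under 0.05. limma-voom called 0 members and DESeq2 called 1, Cacna1e (0.41, adjusted p = 0.0945).

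The libraries named above moved this result as well. Without 3 hr LTP replicate 2, edgeR called 5 members as more responsive at 3 hr (Cacna1a, Cacna1c, Cacna1d, Cacna1e and Scn8a). Without 1 hr LTP replicate 3 it called 2 as less responsive at 3 hr, one of them Cacna2d2. Over all genes these fits called 67 of 18446 and 25 of 18472, against 11 of 18584 with all libraries.

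Levels in control slices also differed between 3 hr and 1 hr, where time in the chamber and animal cannot be told apart. The edgeR test called 6 of 46 members higher at 3 hr, against 16.1% of all genes, and 3 lower, against 16.8%. In either direction 19.6% of the members were called, below the 32.8% of all genes. Hcn4, the pacemaker channel of heart and thalamus, rose from 0.981 and 0.687 CPM to 1.51, 2.11 and 2.06 CPM (log2 fold change 1.16 ± 0.24, SE; edgeR adjusted p = 0.0032). Hcn3 rose from 4.31 and 3.58 CPM to 6.23, 6.36 and 7.22 CPM (0.72, edgeR adjusted p = 0.00282), with 17.1% of its exonic length shared with another gene. The beta subunit Scn4b, linked to resurgent sodium current, rose from 12.7 and 16.3 CPM to 22.0, 19.6 and 20.5 CPM (0.48, edgeR adjusted p = 0.00893).

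All 3 T-type pores were higher in the later controls, Cacna1i by a log2 fold change of 0.54 (edgeR adjusted p = 0.00549), Cacna1h by 0.50 (0.0397) and Cacna1g by 0.44 (0.0182). Cacna1i was at 41.0 and 35.2 CPM in the 1 hr controls and at 50.4, 59.9 and 59.2 CPM in the 3 hr controls, with 54.3 CPM in the 1 hr control set aside, inside the later range. Cacna1h was at 101 CPM in the 1 hr control set aside, also inside its 3 hr control range of 98.4 to 135 CPM. Without 1 hr control replicate 3, Cacna1g and Cacna1h lost their calls, and Cacna1h did so without 3 hr control replicate 3. With offsets for GC content and exonic length the values of Cacna1i, Cacna1h and Cacna1g became 0.18, 0.10 and 0.13, and none of the 3 passed. Scn2a, Cacna2d1 and Scn1a fell by 0.39, 0.35 and 0.27 (edgeR adjusted p = 0.000712, 0.00323 and 0.0191) and did not pass with these offsets. Scn2a then fell short by the fold change alone (-0.24, edgeR adjusted p = 0.0145). Cacna2d1 (-0.14, edgeR adjusted p = 0.149) and Scn1a (-0.13, edgeR adjusted p = 0.257) missed both thresholds. The change of Scn1a lay just past the fold change required, and its call was lost in 17 of 20 alternatives, in 13 of them by the fold change alone. The call of Cacna2d1 was also lost with 1 hr control replicate 2 included. Under the offsets for exonic length 9 of 46 members were called, but now 3 higher and 6 lower. Over all genes 4629 of 18584 were called, 2187 higher and 2442 lower. Hcn3, Hcn4 and Scn4b were the only members called both with and without these offsets.

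The same comparison in LTP slices called 14 of 46 members higher at 3 hr, against 18.6% of all genes, and 5 lower, against 17.3%. It compares other libraries of the same animals. The T-type pores Cacna1i and Cacna1g were again called higher, with log2 fold changes of 0.93 (edgeR adjusted p = 6.43e-05) and 0.77 (edgeR adjusted p = 0.000225). Cacna1i went from 41.8, 35.5 and 43.4 CPM at 1 hr to 72.3, 70.4 and 90.2 CPM at 3 hr, and Cacna1g from 34.1, 34.4 and 28.1 CPM to 55.6, 47.8 and 63.6 CPM. Both kept their calls with the offsets (0.53 and 0.41).

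Apart from Hcn4 and Scn4a, given below, the other members that rose in this comparison were Cacna1h by 0.73, Ryr1 by 0.61, Cacna1b by 0.51, Hcn2 by 0.46, Hcn3 by 0.44, Cacna1a by 0.44, Scn4b by 0.42, Cacnb3 by 0.40, Cacna1d by 0.35 and Cacna1c by 0.34. In all, 7 of the 9 tested alpha1 genes were called higher. With offsets for GC content and exonic length 4 of these 7 kept their calls (Cacna1b, Cacna1g, Cacna1h and Cacna1i). Of the 19 members called 11 lost theirs, Cacna1a, Cacna1c, Cacna1d, Ryr1 and Hcn2 among them. Cacna1c (0.194, edgeR adjusted p = 0.0219) and Cacna1d (0.257, edgeR adjusted p = 0.0107) fell short by the fold change alone. With coding length in its place 10 of the 19 kept their calls, Cacna1d (0.273, edgeR adjusted p = 0.00573) among them. Beside Scn9a, the members that fell were Scn7a (-0.54, edgeR adjusted p = 0.0327), Cacna2d2 (-0.52, 0.0446), Itpr3 (-0.42, 0.0797), an IP3 receptor of epithelia, and Scn2a (-0.29, 0.00184). Of 20 alternatives, Itpr3 lost its call in 6, DESeq2 among them, Scn7a in 5 and Scn2a in 4. Cacna2d2 lost it in 3, without 1 hr LTP replicate 1 (-0.41), 1 hr LTP replicate 2 (-0.27) or 3 hr LTP replicate 1 (-0.46).

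Hcn4 rose from 0.972, 0.738 and 0.752 CPM to 1.39, 1.36 and 1.61 CPM (0.80, edgeR adjusted p = 0.0118). Scn4a rose by 1.32 (edgeR adjusted p = 0.0827) from at most 0.165 CPM to between 0.242 and 0.477 CPM, values near the floor, and lost its call in 8 of 19 alternatives. Scn9a, a sodium pore of sensory and hypothalamic neurons, fell by 0.84 (edgeR adjusted p = 0.00628), from 6.22, 5.51 and 3.93 CPM to 2.27, 3.45 and 3.11 CPM. Calls with the offsets for exonic length were 10 of 46, 5 in each direction, and over all genes 2494 of 18584 rose and 2528 fell. Markers of other cells moved between these times as well. In controls 5 of 6 microglial, 5 of 7 mural and 3 of 5 endothelial markers were called lower and 3 of 6 oligodendrocyte markers higher. In LTP slices 5 of 6 microglial, 3 of 7 mural and 1 of 5 endothelial markers were called lower, and 3 of 6 oligodendrocyte, 1 mural and 1 endothelial marker higher. Neuronal markers moved too: Neurod6 (pyramidal) fell by 1.10 in controls and 0.91 in LTP slices and Gad2 (inhibitory) by 0.41 and 0.44, while Fibcd1 (CA1) rose by 0.40 and 0.47 and Bok (CA3 and CA2) by 0.74 and 0.63. In controls alone Lhx6 fell by 0.38 and Slc32a1 rose by 0.55, both of inhibitory neurons. The lists did not move one way. Beside Bok, 1 of the 4 CA3 and CA2 markers was called lower in each comparison. In LTP slices 1 of the 6 pyramidal markers was called higher, and in controls 1 of the 5 dentate granule markers was called lower. The part of these markers in the differences between times was not tested.

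Of the proteins that bind, traffic or buffer with these channels, 60 genes in 5 lists, 0 of 59 were called at 1 hr by edgeR (4 at an unadjusted p under 0.05), where 0.789% of all genes were called. At 3 hr 5 of 60 rose and 1 fell, against 5.07% and 1.53% of all genes, so these counts lay near the background. Of the 5, 4 were among the 22 channel-binding and trafficking proteins. Ank3, the ankyrin that anchors sodium channels at the axon initial segment, had 570, 565 and 602 CPM in controls and 794, 675 and 865 CPM after LTP (log2 fold change 0.44, edgeR adjusted p = 0.0393). Stac, which binds L-type channels, had 5.41, 5.23 and 4.85 CPM against 8.50, 6.42 and 6.38 CPM (0.48, edgeR adjusted p = 0.0876). Unc80 (0.35) and Unc79 (0.32), subunits of the sodium leak channel complex that the rule for named genes did not choose, rose too. With offsets for GC content and exonic length Ank3 (0.16), Unc80 (0.21) and Unc79 (0.19) were not called. Leaving out LTP replicate 1 or any single control ended the calls of Ank3 and Stac. Those of Unc79 and Unc80 were lost without control replicate 1 or 2 or LTP replicate 1.

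Among 14 calcium pumps and exchangers, Slc24a4, a potassium-dependent sodium/calcium exchanger, rose from 28.1, 27.9 and 30.3 CPM to 37.9, 34.9 and 36.2 CPM (0.35, edgeR adjusted p = 0.0373). Calb2, the calcium buffer calretinin of some interneurons and mossy cells, fell from 6.08, 6.95 and 7.57 CPM to 4.79, 3.96 and 4.51 CPM (-0.62, edgeR adjusted p = 0.0312), and was the only called change among 12 buffers and sensors. Slc24a4 lost its call without control replicate 1 or 2 or LTP replicate 1, and Calb2 without control replicate 2 or 3. Neither the 6 genes of store-operated entry (2 at an unadjusted p under 0.05) nor the 6 of mitochondrial uptake (1) had a called member at 3 hr.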

How the data were processed

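Counts per gene were deposited by the authors as raw, unnormalized values, 1 table per time point. Per the study's methods, rRNA-depleted stranded libraries were aligned with STAR to mm10 and counted with Bioconductor packages; strand use and the treatment of multiply aligned reads are not given in the sources used here. The study describes its expression analysis as resting on reads of coding regions; 9941 gene IDs without coding sequence had counts here, and whether the counts of other genes cover coding sequence alone is not given, so levels and offsets were computed by exonic and, added after the data were seen, coding length. Of 41091 gene IDs, 40217 matched GENCODE M21 and 874 did not; the latter stayed in library sizes and tests.

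Counts were tested in R 4.3.3 with the quasi-likelihood test of edgeR 4.0.16 (filterByExpr, TMM) on the whole table, with Benjamini-Hochberg adjustment over all genes tested. Calls were made at adjusted p below 0.1 with a change exceeding 1.2-fold, as in the study, whose processing notes name DESeq2; for the difference of effects no fold change was required. Each time point was fitted alone (5 libraries at 1 hr without control replicate 2, 6 at 3 hr); time comparisons and the difference of effects came from 1 model of 11 libraries. Genes named were every called member of an LTP comparison, the 3 with the smallest p per comparison, the 5 largest called changes per time comparison, the most abundant member of each subfamily and, per partner list, the 2 largest called changes. Some members and markers are not reported here by name, but stay in the counts. Others were chosen after their values were seen. Members and lists were chosen with earlier results of these data known.

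Alternatives were DESeq2 1.42.0, limma-voom (limma 3.58.1), other scalings and filters, offsets, single libraries left out and animal as a block. Per the labels, an animal number pairs LTP with control within a time point; correlations of same-numbered deviations from group means were -0.0149, -0.156 and 0.075 at 1 hr and 0.0385, -0.0275 and 0.218 at 3 hr. Methods were tested on simulated data. CPM were computed here with TMM library sizes. Floors cover counting error only. Each SE was derived from the log2 fold change and the test statistic of the edgeR fit, which includes the spread between libraries. Columns of no sample: 0.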

Additional observations from a re-analysis of the deposited data

How the results depend on the processing

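The count of members called at 1 hr was 0 in the reported fit and with DESeq2, limma-voom, other scalings, the stricter filter (at least 10 counts in every library), offsets, animal as a replicate block, and 1 hr control replicate 2 included. It was 3 with no filter beyond 1 count, and from 0 to 3 with single libraries left out. At 3 hr the count of 8 became 9 with DESeq2 and with no filter beyond 1 count, 10 with animal as a replicate block, 6 with offsets by coding length, and stayed at 8 with limma-voom, other scalings, the stricter filter and offsets by exonic length; single libraries left out gave 1 to 15. For the difference of effects the count of 0 became 1 with DESeq2 and 2 with no filter beyond 1 count, stayed at 0 with animal as a replicate block, and ran from 0 to 5 with single libraries left out. The time comparison gave 7 to 13 in controls and 16 to 24 in LTP slices with single libraries left out, and 10 and 12 in LTP slices with offsets by exonic and coding length, the latter added after the data were seen. Over 53 values of a named gene in a comparison, 816 refits kept their side of the threshold, 118 lost and 18 gained a call, and 4 changed sign: with offsets by coding length Ryr2 at 3 hr (-0.022) and, between times in LTP slices, Hcn2 (-0.14) and Cacnb3 (-0.0027), and with offsets by exonic length Hcn2 (-0.084). The causes were not tested, but leaving out a library also leaves fewer samples. No block could be fitted for the time comparisons, since animals were assumed to differ between the time points. Genes under about 0.08 CPM could not be judged at this depth.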
